A study of Drosophila melanogaster with 10 samples.

Results

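Of the 13041 genes measured in wing imaginal discs of Drosophila melanogaster larvae in the third instar, 53 carried only a CG number as a symbol and had their highest signal at 6 h after the L2/L3 molt by a wide margin. They were chosen by a rule on the same values that are described here: a symbol made of CG and digits (5913 genes), a signal of at least 50 in both libraries of 6 h, and a lower 6 h library at least 3 times as high as the highest of the 8 later libraries. Their lower levels after 6 h are therefore given as a description, with no test. RNA was sequenced from discs of the strain yw 6, 15, 25, 35 and 48 h into the third larval instar, counted from the L2/L3 molt, and the larvae of 48 h were at the wandering stage. There were n = 2 libraries at each time, called A and B, and all 10 share the genotype and have no treatment in the labels. The labels do not say whether A and B came from separate cultures, so the p-values below measure only the spread between these libraries. Signal is the read count of a gene divided by 1 size factor per library, and 1 read was worth a signal of 0.596 to 1.40.

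A CG number is the identifier that the fly genome annotation gives to a predicted gene until it is named, and no role is given to these genes here. At the molt the larva sheds its cuticle, the chitinous coat secreted by the epidermis, and builds the next one, and the disc, an epithelial sac attached to the larval body wall, then grows and is patterned through the third instar. Discs are dissected by hand, and tissue that lies against them, such as trachea, fat body, muscle or gut, can come along. All 53 genes were protein coding in the Ensembl annotation BDGP6.54 (dm6), from which all positions below come, and 1 of them, CG14880 (FBgn0038422), is named js there.

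The libraries held 16814685 to 38003104 recovered reads. Library 15 h A stood apart from 15 h B: the summed signal of gut digestive enzyme genes (43 table rows, at least 31 of them above 3 reads in each library) was 1368193 in 15 h A and 34082 in 15 h B, against 307818 and 221401 at 6 h A and B. It was 873 to 18099 in the libraries of 25 to 48 h. The genes of this list did not all go the way of the sum: at 15 h LysD had 222189 and 3296 in A and B, and Jon66Ci 466 and 929. The difference was not limited to gut enzymes. The 6 Malpighian tubule genes listed summed to 25648 in 15 h A and 1541 in 15 h B, though Irk3 among them had 34.7 and 61.3. The 10 wing disc epithelium markers, among them the wing selector gene vg and the pouch gene nub, were above 3 reads in every library. Their summed signal was 29884 to 65547, with 30798 in 15 h A and 45000 in 15 h B. Of the 13 genes of the larval cuticle list 2 were measured, Lcp65Ag2 and Lcp65Ab2, with a sum of 31686 and 22898 (6 h), 2879 and 6858 (15 h), 731 and 875 (25 h), 60.4 and 21.9 (35 h), then 8.02 and 5.36 (48 h). Nearly all of it at 6 h was Lcp65Ag2 (31572 and 22780.5). That gene met the same rule apart from the symbol, so its lower level after 6 h is no separate observation. Of the 14 genes of the differentiated muscle list 5 were measured, and they summed to 168229 and 234499 at 6 h and 6662 and 4649 at 48 h. The 9 fat body genes summed to 5269818 and 2283014 at 25 h and 47002 to 530045 in the other libraries. Whether such tissues have a part in the values of the CG genes was not tested, and in bulk discs fewer cells of a type and less RNA per cell cannot be told apart.

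The 53 genes together took, in libraries A and B, 0.119 and 0.120 (6 h), 0.0132 and 0.00584 (15 h), 0.00225 and 0.00320 (25 h), 0.00165 and 0.00190 (35 h), then 0.00123 and 0.00108 (48 h) percent of the reads. Their median signal was 250.0 and 296 (6 h), 24.4 and 14.0 (15 h), 8.42 and 10.3 (25 h), 2.68 and 1.29 (35 h), then 2.67 and 0.596 (48 h). The low levels came close to the limit of detection. In 22 of the 53 no library of 35 or 48 h held more than 3 reads, and 8 of these had no read in any of those 4 libraries, which allows a signal of up to 4.21, the value of 3 reads in the library where a read counts most (counting error only). The 6 h mean signal of single genes ran from 59.4 to 5577, with a median of 295.

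**Figure D1:**
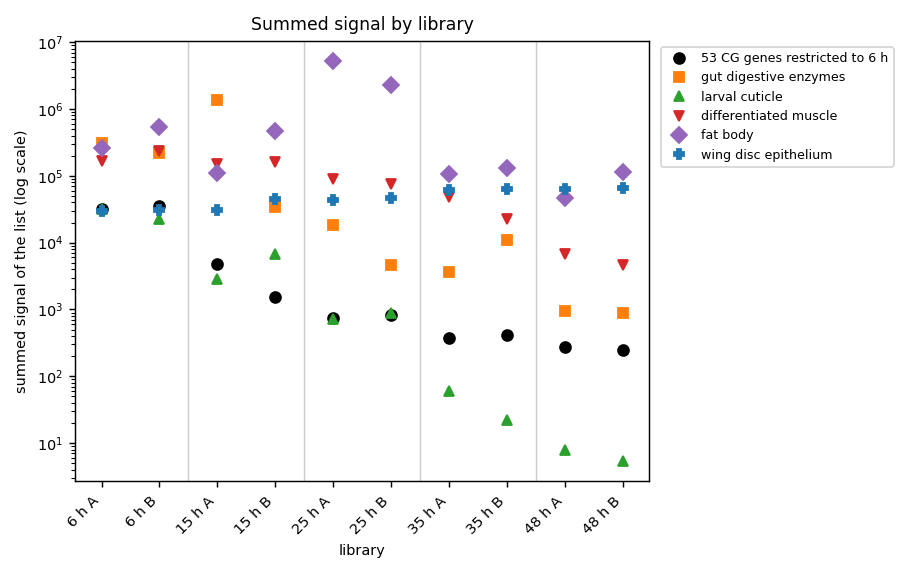
Summed signal (log scale) of the 53 CG genes and of 5 marker lists in each of the 10 libraries, 2 per time. The CG genes sum to 31503 and 35521 at 6 h and to 278 and 244 at 48 h, and the summed gut enzymes are highest in 15 h A. The larval cuticle sum runs downward too, but it is mostly Lcp65Ag2, which met the same rule on signal.

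Some members lay close to either limit of the rule. CG32266 and CG3106 were just inside the ratio, at 3.02 and 3.04, and CG14105 (2.88), CG40486 and CG34305 just outside. At the signal minimum CG12522, with a lower 6 h library of 52.0, and CG43175 (52.2) were the last inside and CG13043 (48.0) and CG13679 (46.2) the first outside. One library set the size of the group: with 15 h A left out of the rule 291 CG genes met it, these 53 and 238 more. The median signal of those 238 was 593 and 408 at 6 h, 1923 in 15 h A and 57.0 in 15 h B, and 180 of them were higher in 15 h A than in both libraries of 6 h. So the 53 are those of the 291 whose lower 6 h library was also at least 3 times 15 h A. For 31 of the 53, 15 h A was still the highest later library. Without 15 h B the rule gave 63 genes.

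The most abundant of the group was CG32266 (FBgn0052266, 3L 3790804 to 3791560, plus strand), which has a coding length of 231 bp. Its signal in replicates A and B was 5078 and 6076 (6 h), 1679.9 and 141 (15 h), 23.9 and 46.5 (25 h), 29.5 and 15.5 (35 h), then 10.0 and 11.9 (48 h). Both libraries of 6 h were above all others, and 15 h A was the next highest by far. CG32266 overlaps CG32264 on the other strand, whose signal was 2149.8 to 4049 in the 10 libraries, so that at 48 h few reads of that neighbour can have been counted for CG32266.

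CG13068 (FBgn0036588, 3L 16269392 to 16269911, plus strand) came second, with 2933 and 4177 (6 h), 455 and 23.6 (15 h), 2.81 and 50.7 (25 h), 0 and 1.29 (35 h), then 0.669 and 0 (48 h). At 35 and 48 h no library of CG13068 held more than 1 read. CG14500 (FBgn0034318, 2R 18188978 to 18189654, plus strand) was uneven at 6 h, since 6 h A was several times 6 h B: it had 4831 and 721 (6 h), 122 and 17.2 (15 h), 0 and 2.07 (25 h), 8.05 and 6.45 (35 h), then 7.35 and 0 (48 h). The 6 h mean of CG14500, 2776 ± 2906 (SD, n = 2), thus rests mainly on 1 library. In CG3106 (FBgn0030148, X 9659095 to 9662903, minus strand), one of the longer genes of the group with 2226 coding bp, 6 h B was the higher library, with 1190.2 and 3406 (6 h), 392 and 289 (15 h), 26.7 and 12.4 (25 h), 12.1 and 29.7 (35 h), then 7.35 and 5.36 (48 h). Its 2 libraries of 15 h were alike, and the later ones were all far lower. CG3106 lies within Ptpmeg2, a tyrosine phosphatase gene on the same strand, which had 1212 to 1987 in the 10 libraries.

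CG8160 (FBgn0034011, 2R 15327143 to 15328271, minus strand) had 1152 and 2337 (6 h), 32.1 and 75.2 (15 h), 87.0 and 47.6 (25 h), 10.7 and 25.8 (35 h), then 7.35 and 28.0 (48 h), and its highest later library was 25 h A. CG34267 (FBgn0085296, 3L 500014 to 500451, minus strand) had 1507 and 1122 (6 h), 136 and 70.9 (15 h), 15.4 and 23.8 (25 h), 42.9 and 27.1 (35 h), then 16.0 and 22.6 (48 h), so that it stayed detectable in every library. Its 35 h libraries lay above those of 25 h. The last of the 10 genes with the highest mean signal at 6 h, CG43896 (FBgn0264488, 3L 11976111 to 11983764, plus strand), is the longest of the 53 with 6339 coding bp in up to 11 exons. Per kb of exon, the scale on which genes can be set beside each other, CG32266 (10603), CG13068 (7899) and CG14500 (4100.1) remained the 3 highest at 6 h. CG34267 (3506) and CG14302 (2948) followed, and CG43896 dropped to 125. The range over the 53 was 24.4 to 10603 per kb, with js (CG14880) lowest.

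**Figure D2:**
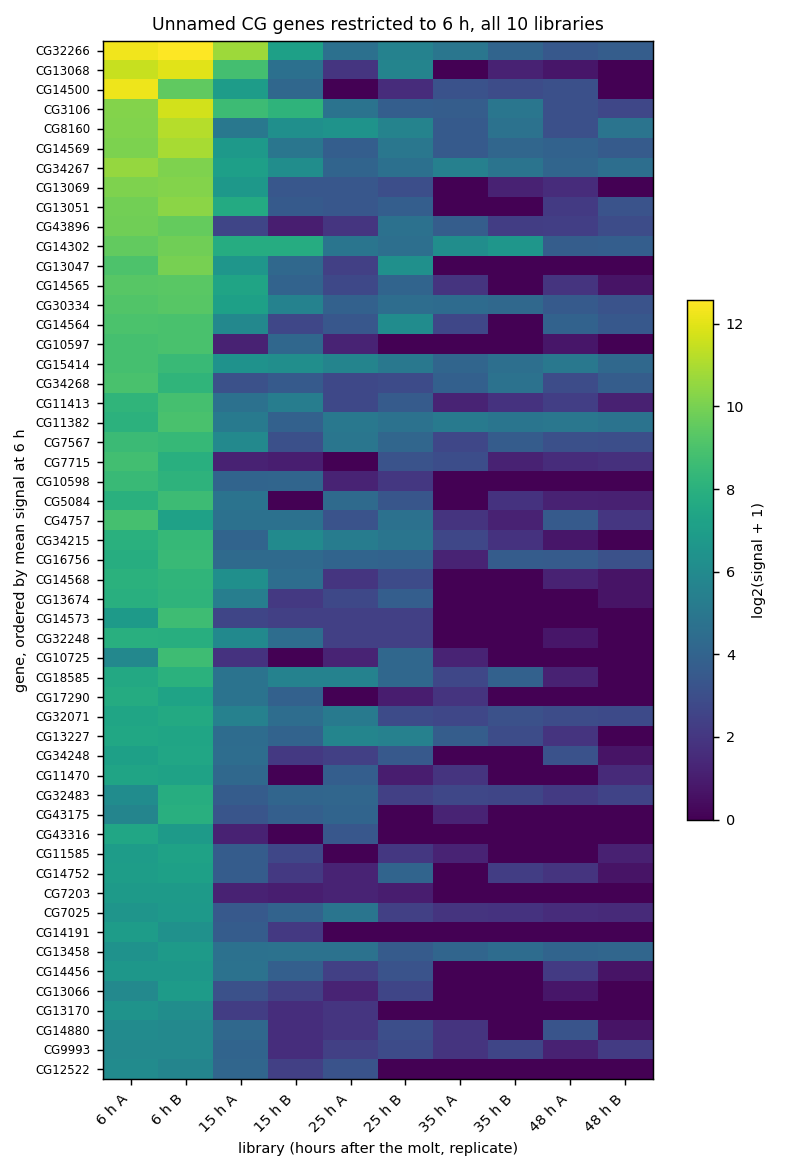
Log2(signal + 1) of the 53 genes (rows, ordered by mean signal at 6 h) in the 10 libraries (columns). Both 6 h columns are bright for all genes by the rule; among the later columns 15 h A is the brightest for 31 genes.

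Among the genes with more than 3 reads in some later library, the ratio of 6 h to the later libraries was highest in CG43896. It had 929.9 and 783 (6 h), 5.14 and 1.07 (15 h), 2.81 and 24.8 (25 h), 12.1 and 3.87 (35 h), then 4.01 and 6.55 (48 h), and the lower 6 h library was 31.6 times the highest later one. CG7715 (FBgn0038646, 3R 18727573 to 18728468, minus strand) followed at 29.5 times, with 427 and 244 (6 h), 1.28 and 1.07 (15 h), 0 and 8.28 (25 h), 6.71 and 1.29 (35 h), then 2.01 and 2.38 (48 h). In both genes 25 h B was the highest later library, and 15 h was already about as low as 35 and 48 h. CG10597 (FBgn0030832, X 17230275 to 17231044, minus strand) had 467 and 495 (6 h), 1.28 and 17.2 (15 h), 1.40 and 0 (25 h), 0 and 0 (35 h), then 0.669 and 0 (48 h), a ratio of 27.1.

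CG7203 (FBgn0031942, 2L 7752170 to 7753186, minus strand) was nearly even at 6 h, with 114 and 115 (6 h), 1.28 and 1.07 (15 h), 1.40 and 1.03 (25 h), 0 and 0 (35 h), then 0 and 0 (48 h). No later library of CG7203 held more than 1 read, so its ratio of 27.0 is set by the 3-read value and is a lower limit given by depth. CG14573 reached 22.0, CG10598 17.3 and CG13170 16.5. CG8160 (13.2), CG16756 (11.6) and CG43316 (11.5) completed the 10 highest ratios. Over the 53 the median ratio was 5.91.

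The 2 libraries of 6 h lay within 2-fold of each other for 44 of the 53 genes, and 6 h B was the higher in 34. CG10725 differed most, with 56.5 and 408 at 6 h in A and B, a ratio of B to A of 7.23, followed by CG43175 (52.2 and 242 at 6 h), CG14573 (113 and 402 at 6 h) and CG32483 (68.5 and 227 at 6 h). CG14500 and CG4757 (466 and 147 at 6 h) went the other way. Such genes met the minimum of 50 through their lower library.

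As a group the genes were short. Their median coding length was 570 bp, from 213 bp in CG14302 to 6339 bp in CG43896, while the median of the 5899 protein-coding CG genes in the table was 996 bp and that of all 12668 protein-coding genes 1233 bp. A coding length under 600 bp was found in 31 of 53 genes (58.5%), against 1563 of 5899 CG genes (26.5%). The median number of exons was 2, against 3 among CG genes. Arm 3L held 23 of the 53 (43.4%), against 20.5% of the protein-coding CG genes, 2R held 12, 3R and X 7 each, and 2L 4. These shares were not tested, since the genes were chosen with the results known and neighbours are not independent. Of the 53, 15 overlap another annotated gene (transposable elements not counted), 12 of them only genes on the other strand; whether reads were counted by strand is not given in the sources used here, so their values can hold reads of the neighbour.

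Many of the 53 lie side by side. Within 10 kb of another member were 23 of them, in 9 loci. The largest locus, 3L 16264713 to 16273608, spans 8.90 kb and holds CG13051, CG13069, CG13068, CG34248 and CG13066, all of 249 to 327 coding bp. CG13051 had 942 and 1330.5 (6 h), 204 and 10.7 (15 h), 9.83 and 12.4 (25 h), 0 and 0 (35 h), then 3.34 and 8.34 (48 h). CG13069 had 1118 and 1212 (6 h), 104 and 9.67 (15 h), 9.83 and 7.24 (25 h), 0 and 1.29 (35 h), then 2.01 and 0 (48 h). In both, as in CG13068 and CG34248, 15 h A was well above 15 h B, and no gene of the 5 had more than 1 read in a 35 h library. A further member, CG13047, lies just past the 10 kb limit, with 536 and 1024 (6 h), 96.3 and 18.3 (15 h), 4.21 and 77.6 (25 h), 0 and 0 (35 h), then 0 and 0 (48 h).

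The other genes of this interval were not members and had unlike time courses. CG13067, between CG34248 and CG13066, had the highest signal there, with 15368 and 25208 (6 h), 7612 and 1253 (15 h), 514 and 1724 (25 h), 73.8 and 55.5 (35 h), then 104 and 79.2 (48 h); it failed the rule through its 15 h A library. CG4950, between CG13069 and CG13068, had the opposite order, with 0.856 and 6.67 (6 h), 1.28 and 1.07 (15 h), 9.83 and 20.7 (25 h), 105 and 61.9 (35 h), then 495 and 322 (48 h). Just outside the interval, CG13053 had 0.856 and 0 (6 h), 0 and 0 (15 h), 0 and 2.07 (25 h), 20.1 and 5.16 (35 h), then 330.2 and 287 (48 h), and CG13064 had 0 reads at 6 and 15 h and a signal of 169.8 and 90.6 at 48 h. Genes lying within a few kb of each other thus had their highest signal at either end of the instar.

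The second locus, 3L 21730725 to 21744269, spans 13.5 kb and holds CG14569, CG14568, CG14573 and CG14565, of 513 to 807 coding bp. CG14569 had 1098 and 1939 (6 h), 110.5 and 30.1 (15 h), 12.6 and 31.0 (25 h), 10.7 and 16.8 (35 h), then 14.7 and 11.3 (48 h). CG14565 had 626 and 655 (6 h), 162 and 15.0 (15 h), 5.62 and 15.5 (25 h), 2.68 and 0 (35 h), then 2.67 and 0.596 (48 h). The genes between CG14573 and CG14565 did not meet the rule. CG14566 had 6508 and 7150.0 (6 h), 4922 and 3624 (15 h), 1682 and 1978 (25 h), 533 and 410.2 (35 h), then 265 and 319 (48 h). CG14572 had 6282 and 8747 (6 h), 3728 and 1735 (15 h), 724 and 3836 (25 h), 325 and 239 (35 h), then 1156 and 309.8 (48 h). Neither had a library below 239, and both were higher at 6 h than at any later time. CG14567 had 133 and 464 (6 h), 108 and 348 (15 h), 255 and 333 (25 h), 252 and 236 (35 h), then 301 and 249 (48 h), with no library of CG14567 at 15 h or later below 108. CG14564 lies just past the limit on the far side, with 514 and 499 (6 h), 57.8 and 5.37 (15 h), 9.83 and 67.2 (25 h), 5.37 and 0 (35 h), then 14.7 and 10.1 (48 h).

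**Figure D3:**
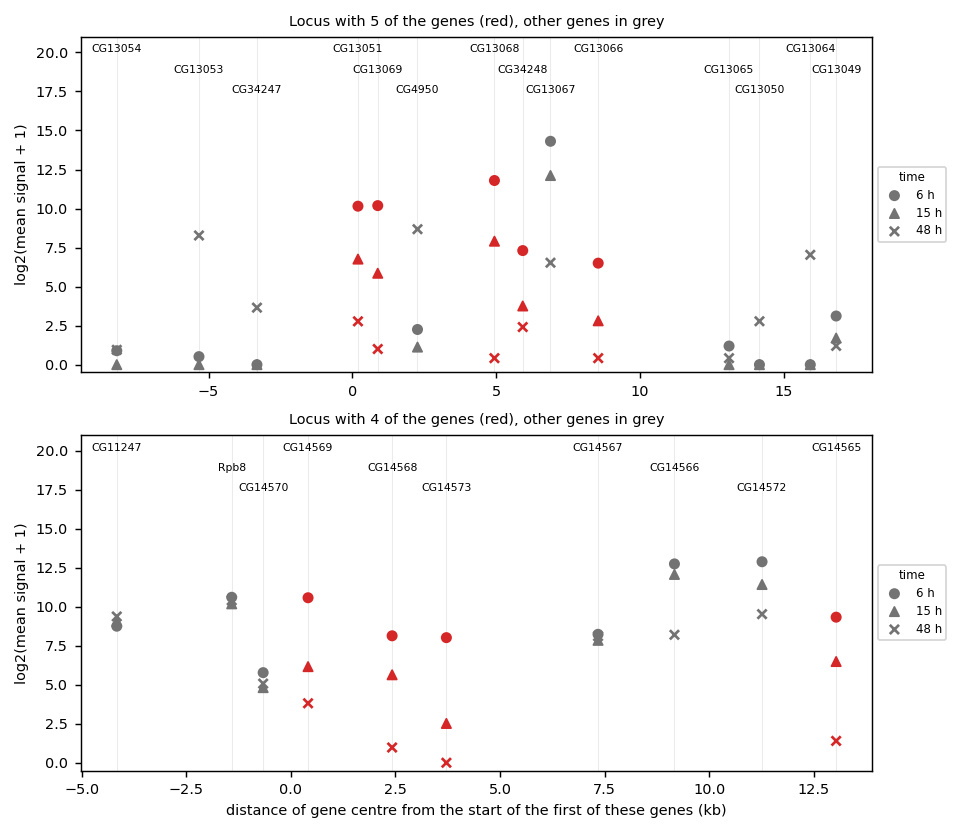
Log2 of mean signal + 1 (n = 2) at 6, 15 and 48 h for genes in the 2 largest loci and up to 10 kb around them, against the distance in kb from the start of the first member. Red marks the 5 and 4 members; grey genes beside them include CG4950 and CG13053, which are high at 48 h, and CG14567, which is nearly level.

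The other loci held 2 members each: CG18585 with CG7025 on 2L, CG13170 with CG43316 on 2R, CG34267 with CG34268 and CG32071 with CG12522 on 3L, CG7715 with CG14302 and CG7567 with CG11470 on 3R, and CG10598 with CG10597 on X. Neighbours were not always alike. CG7715 was at 1 read in each 15 h library whereas CG14302, on the other strand, kept more than 200 there. Between CG13170 and CG43316 lies CG43315, which had 199 and 181 (6 h), 53.9 and 23.6 (15 h), 194 and 25.9 (25 h), 6.71 and 1.29 (35 h), then 0 and 1.79 (48 h) and failed the rule through 25 h A. Next to CG7715, CG7714 had 5244 and 1356 at 6 h, then 18536 and 39.8 at 15 h, the pattern of the 238 genes set aside by 15 h A.

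After 6 h the next highest library was most often 15 h A. It was the highest of the 8 later libraries for 31 of the 53 genes, 25 h A for 8, 15 h B for 7, 25 h B for 6 and 35 h B for 1. With every value below 4.21 set to that floor, 15 h A was more than 2 times 15 h B for 25 genes (47.2%) and 15 h B more than 2 times 15 h A for 3, against 21.5% and 4.01% of the 10453 genes tested. The rule bounds the higher of these libraries but not their order. CG32266, CG13068, CG13051 and CG13069 were among the 25, while CG10597 (1.28 and 17.2 at 15 h), CG34215 (15.4 and 64.5 at 15 h) and CG8160 (32.1 and 75.2 at 15 h) were the 3 with the opposite order. The cuticle gene Lcp65Ag2 was higher in 15 h B, like the latter (2842 and 6806 at 15 h).

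**Figure D4:**
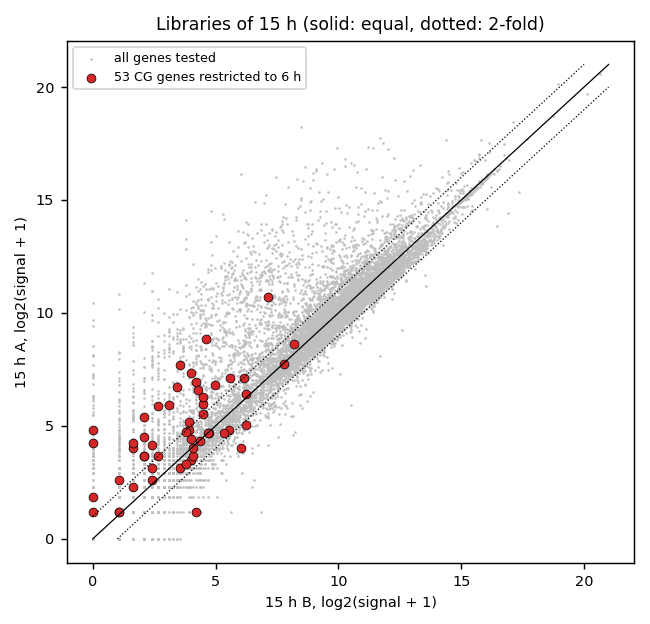
Log2(signal + 1) in 15 h A against 15 h B for the 53 genes (red) and all 10453 genes tested (grey); the solid line marks equal values and the dotted lines 2-fold. More of the red points lie above the upper dotted line than below the lower one.

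The order of the later times was not used by the rule, which only caps them, so contrasts among 15, 25, 35 and 48 h were tested (limma on log2(signal + 1), adjusted over 10453 genes, threshold 0.05). The 6 h libraries sufficed to bring all 53 past the filter on low values, and 39 of them reached it without those libraries too. From 15 to 48 h, 22 of the 53 genes (41.5%) fell and 0 rose; among all genes tested 15.0% fell and 10.7% rose. All genes tested include those that, like 14 of the 53 and 4 of the 22 (CG13066, CG13069, CG14191 and CG14573), reached the filter only with the help of 6 h libraries. With the filter set on the 8 later libraries alone, chosen after seeing the data, 39 of the 53 were tested. Of these 39, 19 fell, 18 of them among the 22, against 15.7% of 9957 genes. The 0 that rose was also 0 at an unadjusted p under 0.05 (1832 of the 10453 genes tested rose at that level), and in edgeR and DESeq2. The change was negative for 50 of the 53 genes, against 5498 of the 10453 genes tested. The median log2 change of the 53 was -2.32, against -0.04 over all genes tested. With values under the 3-read floor of 4.21 raised to it, the medians were -1.69 and -0.05. Both libraries of 15 h were above both of 48 h in 41 of the 53 genes, the 22 among them, and in 35.5% of all genes tested.

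Among the genes that fell and were still above 3 reads in all at 48 h, CG32266 went from 910.3 ± 1088 to 11.0 ± 1.34 (mean ± SD, n = 2), with a fitted change of log2 -5.35, SE 1.04, adjusted p 0.014. Its 15 h mean is held up by replicate A: the change was log2 -3.57 without 15 h A and -7.14 without 15 h B, and the call was lost without either library of 48 h. CG3106 fell from 340.4 ± 72.5 to 6.36 ± 1.41 (log2 -5.53, SE 0.65, adjusted p 0.0027), with both 15 h libraries high. CG30334 (139 and 47.3 at 15 h, then 10.7 and 8.34 at 48 h), CG34267 (136 and 70.9 at 15 h, then 16.0 and 22.6 at 48 h) and CG15414 (84.8 and 74.2 at 15 h, then 31.4 and 17.9 at 48 h) fell too, the last by the smallest amount of the 22 (log2 -1.70, SE 0.39, adjusted p 0.023). CG11413, CG13227, CG14456 and CG14565 completed these with CG14302.

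In 12 of the 22 genes the 48 h libraries held at most 3 reads together, and the fitted change then depends on the value added before the logarithm. Of these, 5 had no read at 48 h. CG13047, with 57.3 ± 55.2 at 15 h, was at least 13.6-fold lower at 48 h, counted against the floor of 4.21. That limit rests mainly on 15 h A (96.3, against 18.3 in 15 h B), and the call was lost without 15 h A (adjusted p 0.0736) and without any 1 library of 35 or 48 h. CG17290 was at least 4.86-fold lower and CG10598 at least 3.74-fold. For CG14191 and CG14573 that limit was 1.76 and 1.12. CG13068, CG32248, CG34215, CG18585, CG14568, CG13069 and CG13066 had 1 to 3 reads in all at 48 h. CG32248 had 61.6 and 21.5 at 15 h, then 0.669 and 0 at 48 h, and CG18585 had 27.0 and 46.2 at 15 h, then 1.34 and 0 at 48 h. Differentiated muscle, gut enzyme, cuticle and blood cell (haemocyte) genes also had lower sums at 48 h than at 15 h. The muscle sums were 151754 and 161587 at 15 h, then 6662 and 4649 at 48 h. Those of the 10 haemocyte genes were 91781 and 107931, then 12013 and 14900, though eater among them stayed near level. The 7 trachea genes had 26097 and 32594 at 15 h, then 30972 and 24174 at 48 h. The part of such tissues in these results was not tested.

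The count rested on few libraries. Without 48 h B 4 of the 53 passed as lower (3.34% of all genes), without 48 h A 10 (3.95%) and without 15 h A 14 (15.8%, 13 of them among the 22). The remaining library of that time is then assumed to vary like the others. CG14302, CG3106, CG32248 and CG10598 passed with any 1 of the 10 libraries left out. Under quantile normalization, which moved the median of all genes from -0.04 to 0.33, 12 passed, all among the 22, against 9.24% of all genes.

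**Figure D5:**
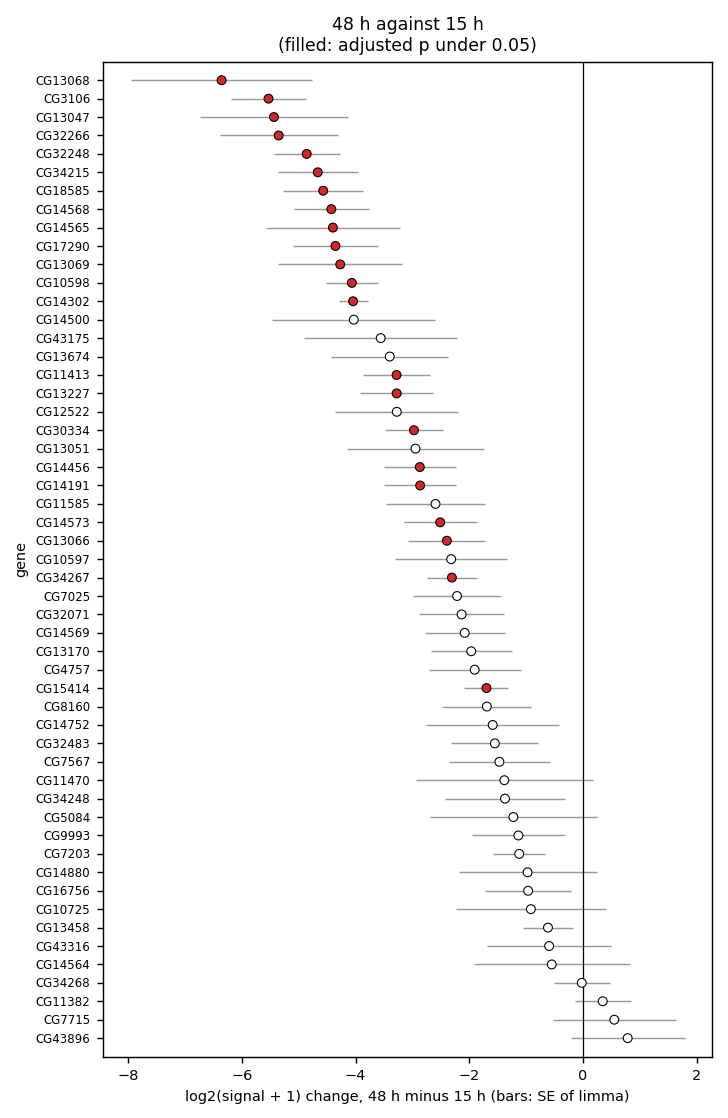
Change in log2(signal + 1) from 15 h to 48 h for each of the 53 genes, with the standard error of the limma fit; filled points passed an adjusted p under 0.05 and open points did not. The 22 filled points lie between -6.36 and -1.70, and 3 open points lie above 0.

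Only CG14302 passed in a single step between neighbouring times, and it passed in all 3. CG14302 (FBgn0038647, 3R 18732681 to 18733034, plus strand), the shortest of the group with 213 coding bp, had 754 and 903 (6 h), 216 and 220.3 (15 h), 28.1 and 22.8 (25 h), 69.8 and 96.7 (35 h), then 12.0 and 12.5 (48 h). Its replicates were close at each time, and the level went down, up and down again. It fell from 15 to 25 h (log2 -3.06, SE 0.26, adjusted p 0.0255), rose from 25 to 35 h (log2 1.66, adjusted p 0.0274) and fell from 35 to 48 h (log2 -2.65, adjusted p 0.0229). In each of these steps few genes of any kind passed: 0.00957% of all genes tested, CG14302 alone, fell from 15 to 25 h, 0.851% rose from 25 to 35 h and 0.239% fell from 35 to 48 h. Each of the 3 calls was lost in a fit of the 8 libraries of 15 to 48 h alone, and each was lost in most of the 10 fits that leave out 1 library: in 7 for 15 to 25 h (adjusted p up to 0.115), 8 for 25 to 35 h (up to 0.184) and 8 for 35 to 48 h (up to 0.149). The change had the same direction in all of them.

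No other member was called in these steps by limma. From 25 to 35 h 0 of 53 fell, against 3.09% of all genes. At an unadjusted p under 0.05 in limma 19 fell, against 1241 of the 10453 genes tested. In edgeR 0 of the 53 fell and in DESeq2 4, for which the share of all genes is not given here. From 15 to 25 h and from 35 to 48 h 0 rose in limma (0.124% and 0.153% of all genes), and in edgeR and DESeq2. At an unadjusted p under 0.05 in limma 0 rose too, against 750 and 568 of the 10453 genes tested. With either library of 15 h left out, 11 of the 53 passed as lower from 25 to 35 h, as did 13.7% of all genes without 15 h A and 13.6% without 15 h B. The highest later mean was that of 15 h for 40 genes, of 25 h for 11 and of 35 h for 2. In 18 genes the mean did not go up at any step after 15 h.

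Among the genes with no call from 15 to 48 h, some kept a low and fairly steady signal after 6 h and others varied. CG11382 (FBgn0040367, X 1209970 to 1211853, plus strand) had 265 and 495 (6 h), 34.7 and 14.0 (15 h), 32.3 and 25.9 (25 h), 33.6 and 28.4 (35 h), then 30.8 and 26.2 (48 h), so that its 8 later libraries lay within 14.0 to 34.7, and its change from 15 to 48 h did not pass (log2 0.35, SE 0.49, adjusted p 0.612). CG13458 had 83.9 and 113 (6 h), 24.4 and 25.8 (15 h), 25.3 and 11.4 (25 h), 16.1 and 20.6 (35 h), then 15.4 and 16.7 (48 h), and its 48 h to 15 h change was log2 -0.62 with an adjusted p of 0.309. CG34268, the neighbour of CG34267, had 505 and 296 (6 h), 7.71 and 10.7 (15 h), 5.62 and 6.21 (25 h), 13.4 and 25.8 (35 h), then 6.69 and 11.9 (48 h) and is the gene whose highest later library was 35 h B, with a change of log2 -0.02 from 15 to 48 h (adjusted p 0.978). CG43896 and CG7715, at or near their lowest levels already at 15 h, stood at log2 0.79 and 0.55 with adjusted p of 0.571 and 0.715.

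Without the condition on the symbol 65 genes met the rule, so that 81.5% had a CG number, against 45.3% of the 13041 rows. The 12 named genes included the larval cuticle gene Lcp65Ag2 and prc, a gene of an extracellular matrix protein. Lcp65Ag2 had 31572 and 22780.5 (6 h), 2842 and 6806 (15 h), 698 and 838 (25 h), 40.3 and 18.1 (35 h), then 7.35 and 4.17 (48 h). The signal of prc was 8247 and 15596 (6 h), 378 and 1136 (15 h), 1415 and 206 (25 h), 22.8 and 5.16 (35 h), then 6.69 and 6.55 (48 h). They also included the digestive protease genes Jon99Ci and Jon44E, the chitin deacetylase gene Cda9, the odorant-binding protein gene Obp83cd, the immune peptide gene BomS1 and Odc1, which encodes ornithine decarboxylase of polyamine synthesis. Jon44E was lower in 15 h A than in 15 h B (799 and 2604 at 6 h, then 16.7 and 139.7 at 15 h). So were other gut enzyme genes, among them Jon99Ci, although the sum of the list was highest in 15 h A. The same rule with another time in the place of 6 h gave 0 CG genes for 15 h, 9 for 25 h, 1 for 35 h and 11 for 48 h.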

How the data were processed

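RNA of 10 wing disc libraries was sequenced, 2 per time. According to the submitters' processing notes, STAR 2.7.10a and featureCounts were used, with the builds dm6 and BDGP6. The deposited values are a signal, that is, read counts per gene after division by a size factor for each library. Its strand setting, normalization tool and gene filter are not given in the sources used here. Each library was divided by its own step, which gave whole reads within 0.001 for 100% of the values. The 10453 genes that reached a signal of 10 in 2 or more libraries entered the test. Their log2(signal + 1) was fitted in limma (version 3.58.1, R 4.3.3) with its trend option, a mean for each time and 5 residual degrees of freedom, two-sided, with Benjamini-Hochberg adjustment. The fit was run on simulated counts for 48 h against 35 h only, with replicates made alike, so that run is no check on contrasts with 15 h. Alternatives included edgeR 4.0.16 quasi-likelihood tests and DESeq2 1.42.0 on the recovered reads. The labels give polyA RNA as the molecule, while their protocol describes stranded libraries depleted of ribosomal RNA. Named genes were the 10 highest at 6 h, the 10 with the highest ratio, those nearest the rule's limits, those called, and neighbours within 10 kb; genes between them, those with unequal replicates and those with a steady signal were added after their values were seen. The genes, marker lists and tests were chosen with earlier results of these data known. The planned motif and protein comparisons were not run, since no sequences were used here.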

Additional observations from a re-analysis of the deposited data

How the results depend on the processing

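The number of CG genes that meet the rule was 53, 67 with a signal minimum of 25, 41 with 100, 94 with a ratio of 2 and 31 with a ratio of 5. On the CPM scale it was 3 with a minimum of 50, a far stricter level, and 56 (51 shared) with a minimum of 2, chosen after seeing the data. Leaving out 1 library gave 53 to 291, with 99 without either library of 6 h, 73 without 25 h A and 291 without 15 h A. For 48 h against 15 h, 22 genes were lower, 4 to 32 with 1 library left out, 12 under quantile normalization, and 16 to 31 in the other alternatives, 19 with the filter on the 8 later libraries, chosen after seeing the data. The members lower at 25 h against 15 h (1) were 0 under quantile normalization, the replicate block and the fit of 8 libraries, 10 in DESeq2, and 0 to 17 with 1 library left out, the 17 without 15 h B. The members lower at 35 h against 25 h (0) were 5 and 1 with a pseudocount of 0.25 and 5, 4 in DESeq2, and 0 to 11 with 1 left out. The member higher there (1) was 0 under quantile normalization and in the fit of 8 libraries, and 0 to 1 with 1 left out. The member lower at 48 h against 35 h (1) was 0 under quantile normalization, the replicate block and the fit of 8 libraries, 3 in DESeq2, and 0 to 1 with 1 left out. The count higher at 48 h against 35 h was 0 to 1 with 1 left out, and those higher at 25 h and 48 h against 15 h stayed 0 in all alternatives. For steps between neighbouring times, the share of all genes under an alternative is given above only for 35 h against 25 h without a library of 15 h. For the other member counts of these steps that share is not given here, so no comparison with all genes is drawn from them. The causes were not tested. With the replicate letter as a block 21 genes were lower at 48 h against 15 h (14.5% of all genes), all among the 22. The labels do not say whether libraries of the same letter share more than the letter. Differences between A and B correlated across genes with -0.06 to 0.16 over the 10 combinations of times, highest for 15 h with 48 h. Of the single-gene values under alternatives, 398 kept the call, 123 lost it and 0 turned in direction. Below about 4 reads, zero and low levels cannot be told apart at this depth.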
